A study of Mus musculus with 6 samples.

Results

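The genes described here set how glucocorticoids are activated, sensed and answered in a cell. They are the gene models named Hsd11b1, Hsd11b2, Nr3c1, Nr3c2, Fkbp5, Tsc22d3 and Per1, chosen by name, 7 of the 23726 gene models in the deposited table, and all 7 had enough counts to be tested. The series follows mouse skin carcinogenesis driven by topical DMBA, a mutagen, and TPA, a phorbol ester that promotes tumours. Transcripts were counted in 6 libraries of total RNA: 1 biopsy of healthy skin, 2 biopsies of DMBA/TPA-induced papillomas, 1 biopsy of a DMBA/TPA-induced tumour, and 2 cell cultures from such tumours. The cultures are mSCC-20, labelled non tumorigenic, and mSCC-38, labelled tumorigenic. The labels call the papillomas distinct without saying whether they grew on separate mice, so the p-values below reflect the spread among these libraries alone, and part of it may be technical. Strain, age, sex, doses and the hour of collection are not in the labels, nor do they state whether either culture came from the sequenced tumour.

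Glucocorticoids circulate in an active form (corticosterone in mice) and an inert form (11-dehydrocorticosterone), and cells convert one into the other. The enzyme encoded by Hsd11b1 regenerates active hormone, whereas the enzyme encoded by Hsd11b2 inactivates it and, in aldosterone target tissues, keeps glucocorticoids off the mineralocorticoid receptor. Active hormone binds the glucocorticoid receptor (Nr3c1), which leaves a chaperone complex, enters the nucleus and induces genes such as Fkbp5, Tsc22d3 and Per1, and glucocorticoids restrain proliferation and inflammation in skin.

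Total counts ran from 25140489 in papilloma 1 to 42992597 in the tumour, and the RNA integrity number was lowest in skin (7.5) and 8.2 to 9.6 elsewhere, so that in this single skin library tissue and RNA integrity cannot be told apart. Levels are counts per 1000000 counts (CPM) scaled with TMM factors. Keratinocyte genes were present in all 6 libraries, at a summed 6813 to 53674 CPM over Krt5, Krt14, Krt1 and Krt10, but the differentiation keratins Krt1 and Krt10 were at 96.8 and 94.6 CPM in the tumour and at 3.92 to 10.1 CPM in the cultures, against 1368 to 10827 CPM in skin and papillomas. In the cultures the 6 fibroblast genes summed to 12.0 and 191 CPM, against 3252 to 4852 CPM in the biopsies, and the 4 T cell genes had no count. Skeletal muscle genes summed to 8385 CPM in skin and to 1586, 959 and 567 CPM in papilloma 1, papilloma 2 and the tumour.

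Against skin, 6 of the 7 genes fell in papilloma (edgeR quasi-likelihood test, Benjamini-Hochberg adjusted p under 0.05), and none rose. Over all 16353 genes tested, 14.1% were called lower and 12% higher in the same comparison. The median log2 fold change of the 7 genes was -1.46, against -0.06 over all genes tested. All 4 sebaceous genes (summed 2603 CPM in skin, 719 and 995 CPM in the papillomas) and all 4 macrophage genes (266, 136 and 139 CPM) were also lower in both papillomas than in skin. So were all 5 skeletal muscle genes (8385, 1586 and 959 CPM), all 4 hair follicle genes and all 4 T cell genes. Of the other lists, none of the keratinocyte or endothelial genes was, against 2 of 6 fibroblast and 4 of 6 adipocyte genes. The part of these cell types in the decreases of the 7 genes was not tested. The decreases ran from 1.54-fold for Fkbp5 to 42.4-fold for Hsd11b2. Between the tumour and the papillomas none of the 7 was called in either direction, where 12% of all genes were called higher and 10.6% lower. The fit holds 4 biopsies with 1 residual degree of freedom, from the pair of papillomas, so skin and tumour are assumed to be as variable as papilloma. Both tested comparisons use the same papillomas, and in bulk tissue fewer cells of a type and less RNA per cell cannot be told apart.

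**Figure D1:**
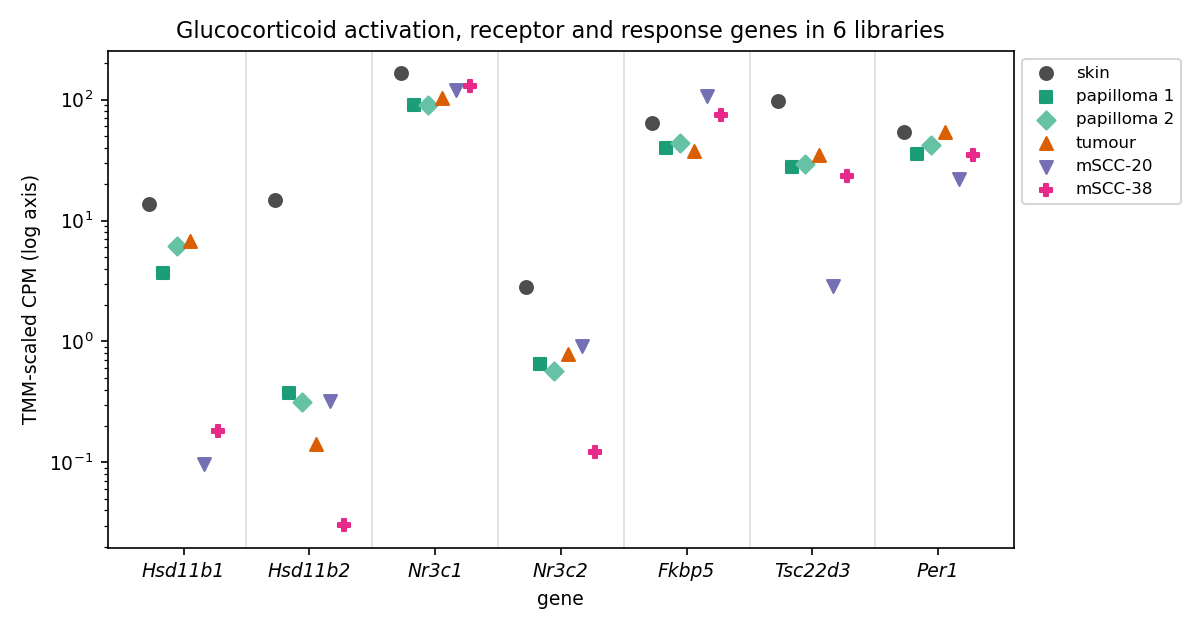
TMM-scaled CPM on a log axis (y) of each of the 7 genes (x) in the 6 libraries, 1 symbol per library. Hsd11b2 stands at 14.8 CPM in skin and at 0.375 CPM or less in the other 5 libraries, whereas Nr3c1 lies between 89.7 and 165 CPM throughout.

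Of the enzymes, Hsd11b1 encodes the reductase that turns inert hormone back into its active form (model at chr1:195047835-195090239, minus strand, mm9). It stood at 13.6 CPM in skin, at 3.70 and 6.15 CPM in papilloma 1 and papilloma 2 (4.92 ± 1.73, SD, n = 2) and at 6.74 CPM in the tumour. Skin was above every lesion, and the tumour lay close above the higher papilloma. In the cultures the gene was nearly absent, with 3 counts (0.0974 CPM) in mSCC-20 and 6 counts (0.181 CPM) in mSCC-38. In papilloma it fell by 1.46 ± 0.37 (log2, SE), which is 2.74-fold (edgeR adjusted p = 0.0470). The call was lost with DESeq2 size factors in the same test (edgeR adjusted p = 0.0685) and with all 6 libraries in the fit (edgeR adjusted p = 0.0509). The papillomas themselves differed 1.66-fold (exact 95% interval of the count ratio 1.26 to 2.19, counting error only).

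The tumour and papilloma values of Hsd11b1 differed by 0.44 ± 0.38 in log2 units (edgeR adjusted p = 0.438), with a 95% interval of -0.54 to 1.43 before adjustment. Comparisons of 1 library with 1 library have no replicate check, and their exact intervals cover counting error only. The tumour had 2.02-fold less Hsd11b1 than skin (interval 1.75 to 2.33). The cultures had 69.2-fold less (interval 23.4 to 338, mSCC-20) and 37.2-fold less (interval 16.9 to 102, mSCC-38) than the tumour. The fibroblast genes were lower in the cultures too, as given above. Between skin and papilloma their sum was higher, through Col1a1, Col1a2, Col3a1 and Lum, while Dcn (859 CPM in skin, 212 and 270 CPM in the papillomas) and Pdgfra (65.3, 59.3 and 51.5 CPM) were lower in both papillomas. Of the 6 adipocyte genes, Adipoq, Plin1, Cidec and Lep were lower in both papillomas (Adipoq 82.7 CPM in skin, 5.06 and 12.9 CPM in the papillomas) and Fabp4 and Lipe were higher (Fabp4 349, 1249 and 603 CPM). Their part in the values of Hsd11b1 was not tested.

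Hsd11b2, the inactivating dehydrogenase (chr8:108042646-108047888, plus strand, mm9), showed the largest difference of the 7 genes. It had 735 counts in skin and 8, 9, 6, 10 and 1 counts in papilloma 1, papilloma 2, the tumour, mSCC-20 and mSCC-38. In CPM the lesions and cultures stood at 0.375, 0.318, 0.142, 0.325 and 0.0302 in that order, so no other library came near skin. In papilloma the gene fell by 5.41 ± 0.37 (log2, SE), the 42.4-fold decrease given above (edgeR adjusted p = 0.00529), and the call held in every alternative test run. The papillomas did not differ from each other beyond counting error (papilloma 2 over papilloma 1, 0.848, interval 0.290 to 2.52).

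From papilloma to tumour the Hsd11b2 difference was -1.26 ± 0.52 in log2 units (edgeR adjusted p = 0.148, 95% interval -2.60 to 0.08 before adjustment). The tumour had 104-fold less than skin (interval 47.5 to 284), and Hsd11b2 was the 1 of the 6 members at 10 CPM or more that differed at least 4-fold between these libraries. In that comparison 9.11% of genes at 10 CPM or more were at least 4-fold lower in the tumour and 5.23% at least 4-fold higher. The mSCC-20 level over that of the tumour was 2.28 (interval 0.751 to 7.63), a difference not detectable at this depth, whereas mSCC-38 had 10.8-fold less than mSCC-20 (interval 1.53 to 467). Hair follicle genes were lower in the lesions as well. Krt71, Krt25, Krt27 and Tchh were at 0.0560% to 0.329% of skin in papilloma 1 and at 26.0% to 34.4% in papilloma 2, while Hsd11b2 was at 2.54% and 2.15%. The papilloma values of Hsd11b2 rest on 8 and 9 counts, and the part of the hair follicle in the result was not tested.

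Per length of gene model, the only scale on which levels of different genes are compared here, the transcripts of the enzymes were nearly level in the skin library. They stood at 9.46 CPM per kilobase for Hsd11b1 and 8.02 for Hsd11b2. The ratio of Hsd11b1 to Hsd11b2 was 1.18 in skin (exact 95% interval 1.06 to 1.31). It was 12.7 in papilloma 1 (6.12 to 30.3), 24.8 in papilloma 2 (12.8 to 55.1) and 60.7 in the tumour (27.5 to 167). Every lesion biopsy therefore had a higher ratio of activating to inactivating enzyme transcript than skin, beyond counting error. The intervals of the 3 lesions overlapped one another. In the cultures both genes were close to the limit of detection, and the ratio was 0.385 in mSCC-20 (0.0680 to 1.49) and 7.69 in mSCC-38 (0.933 to 354).

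**Figure D2:**
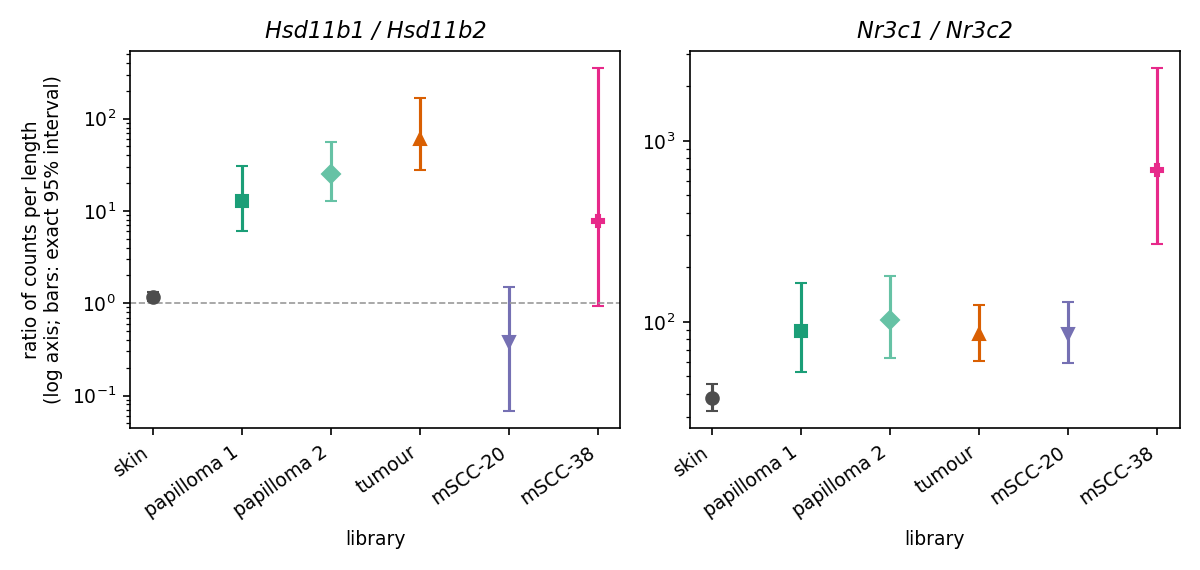
Ratio of counts per length (y, log axis) of Hsd11b1 to Hsd11b2 (left) and of Nr3c1 to Nr3c2 (right) in each library (x), with exact 95% intervals for counting error as bars. The enzyme ratio is 1.18 in skin and 12.7 to 60.7 in the lesion biopsies, and the receptor ratio is 38.1 in skin and 688 in mSCC-38.

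Nr3c1, the glucocorticoid receptor (chr18:39570199-39646899, minus strand, mm9), was the steadiest of the 7 genes, with a highest level 1.84 times the lowest. It stood at 165 CPM in skin, 90.7 and 89.7 CPM in the papillomas (90.2 ± 0.653, SD, n = 2), 103 CPM in the tumour, 120 CPM in mSCC-20 and 129 CPM in mSCC-38. Skin was highest, the papillomas lowest, and the cultures lay between skin and the tumour. In papilloma the receptor fell by 0.87 ± 0.17 (log2, SE), which is 1.82-fold (edgeR adjusted p = 0.0258), and the call held in every alternative test run. The tumour differed from papilloma by 0.19 ± 0.17 in log2 units (edgeR adjusted p = 0.452, 95% interval -0.25 to 0.63 before adjustment). The receptor transcript was thus counted in quantity in the cultures, at 3707 and 4265 counts, where both enzyme transcripts were nearly absent.

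Nr3c2, the mineralocorticoid receptor (chr8:79426407-79767538, plus strand, mm9), which also binds glucocorticoids with high affinity, was scarce in every library. It stood at 2.80 CPM in skin, 0.656 and 0.565 CPM in the papillomas (0.611 ± 0.0645, SD, n = 2), 0.783 CPM in the tumour, 0.909 CPM in mSCC-20 and 0.121 CPM in mSCC-38. Only skin stood above 1 CPM, and mSCC-38, with 4 counts, was lowest. In papilloma it fell by 2.19 ± 0.47 (log2, SE), which is 4.56-fold (edgeR adjusted p = 0.0321), but not in DESeq2's Wald test (DESeq2 adjusted p = 0.126). From papilloma to tumour it differed by 0.36 ± 0.51 (edgeR adjusted p = 0.637, 95% interval -0.96 to 1.67 before adjustment).

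Among the libraries that stood lower, the Nr3c2 level of mSCC-20 over that of the tumour was 1.16 (interval 0.676 to 1.98), which was not distinguishable at this depth. Between the cultures mSCC-38 had 7.53-fold less than mSCC-20 (interval 2.64 to 29.6). Per length, the glucocorticoid receptor exceeded the mineralocorticoid receptor in all libraries, 38.1-fold in skin (32.2 to 45.4), 89.1- and 102-fold in the papillomas, 85.2-fold in the tumour (60.6 to 124), 85.4-fold in mSCC-20 and 688-fold in mSCC-38 (268 to 2526).

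**Figure D3:**
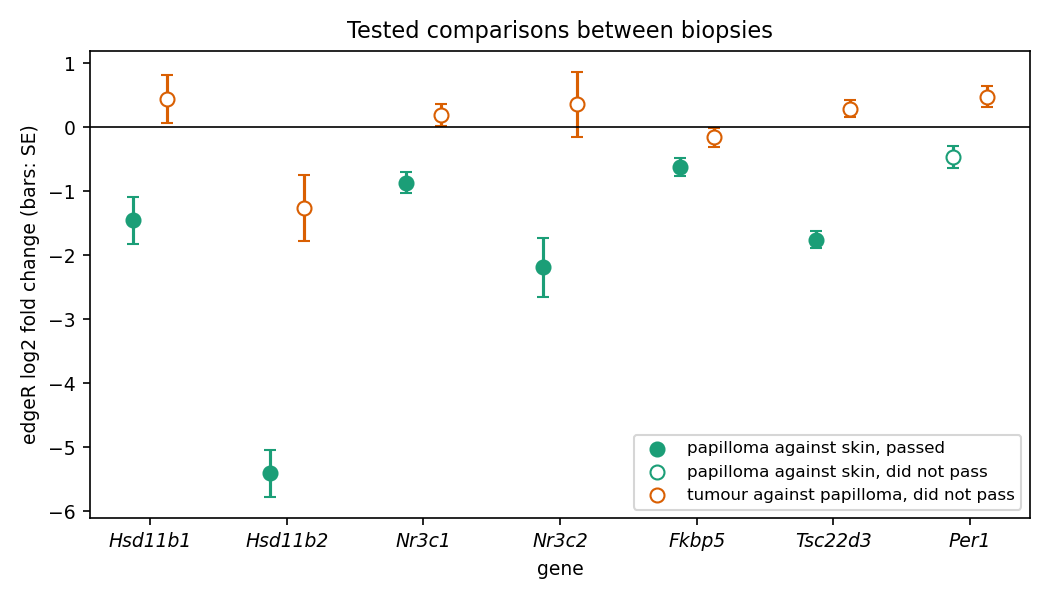
edgeR log2 fold changes (y) of the 7 genes (x) for papilloma against skin and tumour against papilloma, with standard errors as bars and filled symbols where the adjusted p was under 0.05. The 6 filled symbols all belong to papilloma against skin and run from -5.41 for Hsd11b2 to -0.63 for Fkbp5.

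The response genes were read next, with the stretch of 250 bases before their transcription start shown because the receptor, clock factors and cAMP signalling all act on such genes. Sequences are RefSeq's on GRCm38.p6, for which 5 of the 7 genes matched, and they run 5′ to 3′ on the gene's strand. Capitals mark the letters of 3 motifs searched on both strands: TGTTCT, the hexamer bound by 1 unit of the receptor, CACGTG, the E-box bound by clock factors, and TGACG, the core of the cAMP response element. Counted back from the start, with -1 as the base just before it, the matches begin at -169 in Fkbp5 (E-box), at -185 in Tsc22d3 (hexamer), and at -166 (E-box) and -246 (TGACG) in Per1. The windows are chr17:28486150-28486399 (minus strand) for Fkbp5, chrX:140600523-140600772 (minus strand) for the third of the 3 listed starts of Tsc22d3, and chr11:69098699-69098948 (plus strand) for the first of the 2 listed starts of Per1.
Fkbp5: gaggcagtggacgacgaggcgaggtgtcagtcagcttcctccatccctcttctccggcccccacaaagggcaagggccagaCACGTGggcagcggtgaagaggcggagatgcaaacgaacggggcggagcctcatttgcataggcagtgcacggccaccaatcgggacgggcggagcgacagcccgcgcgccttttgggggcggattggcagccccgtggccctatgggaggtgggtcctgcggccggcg
Tsc22d3: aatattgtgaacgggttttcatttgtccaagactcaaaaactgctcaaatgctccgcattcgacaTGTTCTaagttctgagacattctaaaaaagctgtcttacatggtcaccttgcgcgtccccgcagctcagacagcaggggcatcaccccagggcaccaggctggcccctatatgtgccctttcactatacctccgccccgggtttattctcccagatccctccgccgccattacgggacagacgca
Per1: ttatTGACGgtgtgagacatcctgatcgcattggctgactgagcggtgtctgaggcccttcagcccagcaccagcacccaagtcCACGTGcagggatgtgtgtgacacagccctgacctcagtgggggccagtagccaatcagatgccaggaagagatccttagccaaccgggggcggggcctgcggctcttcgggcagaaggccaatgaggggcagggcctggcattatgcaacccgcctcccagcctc
Of 32851 such windows over all genes, 16.1% hold TGTTCT, 6.02% hold CACGTG and 17.8% hold TGACG. The full palindrome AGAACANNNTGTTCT, which contains the hexamer, was in 3 windows and in none of those of the 5 matched genes. The windows shown are those with a match to the hexamer or the E-box. The second listed starts of Tsc22d3 and Per1 hold TGACG alone, at -224 and -132, and the first of Tsc22d3 and those of Hsd11b1 and Nr3c2 hold none of the motifs. A match is a run of letters and not a measured binding site. Sequence farther upstream or within the genes was not searched, so a window without a match does not speak to receptor sites elsewhere.

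Fkbp5 encodes a co-chaperone that lowers the receptor's affinity for hormone and is itself induced by it, closing a feedback loop (chr17:28536040-28623057, minus strand, mm9). It stood at 64.5 CPM in skin, 39.9 and 43.4 CPM in the papillomas (41.7 ± 2.51, SD, n = 2), 37.5 CPM in the tumour, 107 CPM in mSCC-20 and 74.6 CPM in mSCC-38. The lesion biopsies were below skin and the cultures above it, which no other member showed. In papilloma Fkbp5 fell by 0.63 ± 0.14 (log2, SE; edgeR adjusted p = 0.0365), a call lost with DESeq2 size factors (edgeR adjusted p = 0.0541) and in DESeq2's Wald test (DESeq2 adjusted p = 0.0872). The tumour differed from papilloma by -0.16 ± 0.14 (edgeR adjusted p = 0.468, 95% interval -0.53 to 0.22 before adjustment). The mSCC-20 and mSCC-38 levels were 2.86-fold (2.70 to 3.04) and 1.99-fold (1.87 to 2.12) that of the tumour.

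Tsc22d3, also called Gilz, encodes a leucine zipper protein through which glucocorticoids dampen inflammatory signalling (chrX:137074068-137135061, minus strand, mm9). It stood at 97.1 CPM in skin, 27.9 and 29.4 CPM in the papillomas (28.7 ± 1.08, SD, n = 2), 35.2 CPM in the tumour, 2.86 CPM in mSCC-20 and 23.6 CPM in mSCC-38. Skin was far above all others, the 3 lesions were close together, and mSCC-20 stood apart at the bottom. In papilloma Tsc22d3 fell by 1.76 ± 0.13 (log2, SE), which is 3.38-fold (edgeR adjusted p = 0.00572), and the call held in every alternative test run. From papilloma to tumour it differed by 0.29 ± 0.14 (edgeR adjusted p = 0.195, 95% interval -0.07 to 0.65 before adjustment). The T cell genes, from a cell type in which Tsc22d3 is well known, summed to 25.5 CPM in skin, 7.22 and 5.23 CPM in the papillomas and 11.4 CPM in the tumour, and their part in the result was not tested.

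Between the cultures Tsc22d3 and Fkbp5 went opposite ways. Tsc22d3 was 8.25-fold higher in mSCC-38 than in mSCC-20 (interval 6.61 to 10.4), whereas Fkbp5 was 1.44-fold lower (interval 1.37 to 1.52). Tsc22d3 was the only one of the members at 10 CPM or more to differ at least 4-fold between the cultures, where 6.84% of such genes were at least 4-fold higher and 3.28% lower in mSCC-38. It was also 12.3-fold lower in mSCC-20 than in the tumour (interval 9.93 to 15.4), where 14.4% of such genes were at least 4-fold lower and 6.05% higher. The level of mSCC-38 was 1.49-fold below that of the tumour (interval 1.37 to 1.63). No member at 10 CPM or more differed at least 4-fold between mSCC-38 and the tumour, where 2.85% of such genes were that much higher and 10.4% lower. The same held between the 2 papillomas, where 1.09% were that much higher and 0.0904% lower in papilloma 2.

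Per1, a repressor of the circadian clock that glucocorticoids also induce directly (chr11:68912458-68923459, plus strand, mm9), did not pass the test in either comparison. It stood at 53.7 CPM in skin, 35.3 and 42.1 CPM in the papillomas (38.7 ± 4.80, SD, n = 2), 54.1 CPM in the tumour, 22.2 CPM in mSCC-20 and 34.5 CPM in mSCC-38. With TMM scaling skin and tumour were level, with a ratio of 1.01 (interval 0.953 to 1.07), both papillomas lay below them, and mSCC-20 was lowest. The log2 ratio of tumour to skin was 0.01 with TMM, -0.28 with library totals alone and -0.04 with DESeq2 size factors, so its direction depends on the scaling. For papilloma against skin the log2 difference was -0.47 ± 0.17 (edgeR adjusted p = 0.0973, 95% interval -0.90 to -0.04 before adjustment), and it passed with library totals alone (edgeR adjusted p = 0.0493). Under that scaling the median of all genes moved from -0.06 to -0.48. For tumour against papilloma the difference was 0.48 ± 0.17 (edgeR adjusted p = 0.105, 95% interval 0.05 to 0.91 before adjustment). Per1 was the 1 of the 7 genes at an unadjusted p under 0.05 there (edgeR), as were 6298 of all 16353 genes tested. DESeq2's Wald test put 0 of the 7 past that mark, and 5070 of 19190 genes over the whole table. With TMM scaling skin was above every lesion biopsy for the other 6 genes, as it was for 36.8% of all genes tested. By library totals alone skin was above the tumour for Per1 as well (64.3 against 53.1 CPM).

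The wider set of glucocorticoid-induced genes did not follow the members as a block. Of 17 listed, 6 fell and 3 rose in papilloma (edgeR), where 14.1% of all genes tested were called lower and 12% higher. The median log2 fold change was -0.11, against -0.06 over all genes. Zbtb16, a transcriptional repressor strongly induced by the hormone, fell by 2.94 ± 0.27 on the log2 scale, from 18.6 CPM in skin to 2.34 and 2.47 CPM (edgeR adjusted p = 0.00765). Klf15, a metabolic regulator induced in many tissues, fell by 2.59 ± 0.44, from 15.7 to 1.73 and 3.39 CPM (edgeR adjusted p = 0.0202). The other genes that fell were Klf9, Cdkn1c, Pdk4 and Bcl6. Those that rose were Dusp1, a MAP kinase phosphatase (45.8 CPM in skin, 174 and 118 CPM in the papillomas), Zfp36, which destabilises inflammatory mRNAs (60.2, 163 and 132 CPM), and Ddit4, an mTOR inhibitor (45.4, 83.9 and 72.1 CPM). Dusp1, Zfp36 and Ddit4 are also known as targets of growth factor and stress signalling, whose part in these values was not tested. Other inputs to the 6 genes that fell were not tested either. With DESeq2 size factors the calls of Pdk4, Bcl6 and Ddit4 were lost (edgeR adjusted p = 0.0655, 0.0589 and 0.0556), and with library totals alone that of Ddit4 (edgeR adjusted p = 0.173). The genes named here beyond the first pair were chosen after their values were seen.

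Between papilloma and tumour, 2 of the 17 rose and 1 fell (edgeR), with a median of -0.39, against -0.02 over all genes tested. Of all genes tested, 12% were called higher and 10.6% lower in this comparison. Sgk1, a kinase that acts on ion transport, rose by 0.84 ± 0.19 (log2), from 133 and 149 to 254 CPM (edgeR adjusted p = 0.0390), and Ddit4 was the other that rose, to 134 CPM. Both calls were lost with DESeq2 size factors (edgeR adjusted p = 0.0531 and 0.0576). Cdkn1c, a cyclin-dependent kinase inhibitor, fell by 1.72 ± 0.35, from 3.14 and 3.57 to 1.02 CPM (edgeR adjusted p = 0.0301), but not with library totals alone (edgeR adjusted p = 0.0596). Between the cultures, 4 of the 13 listed genes at 10 CPM or more in the higher library were past 4-fold, 2 in each direction. Among all such genes 6.84% were at least 4-fold higher and 3.28% lower in mSCC-38. Pdk4, below that level in both cultures, was 12.5-fold lower in mSCC-38 (0.664 against 8.28 CPM). In mSCC-38, Dusp1 and Zfp36 were 24.7-fold (22.3 to 27.4) and 16.5-fold (15.0 to 18.3) lower than in mSCC-20, opposite to Tsc22d3, whereas Sgk1 (4.77-fold, 4.51 to 5.05) and Cebpd (4.26-fold) were higher, as Tsc22d3 was. Anxa1, which encodes annexin A1 and is a mediator of the hormone's anti-inflammatory action, was 8.89-fold lower in mSCC-38 than in the tumour (8.75 to 9.03).

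**Figure D4:**
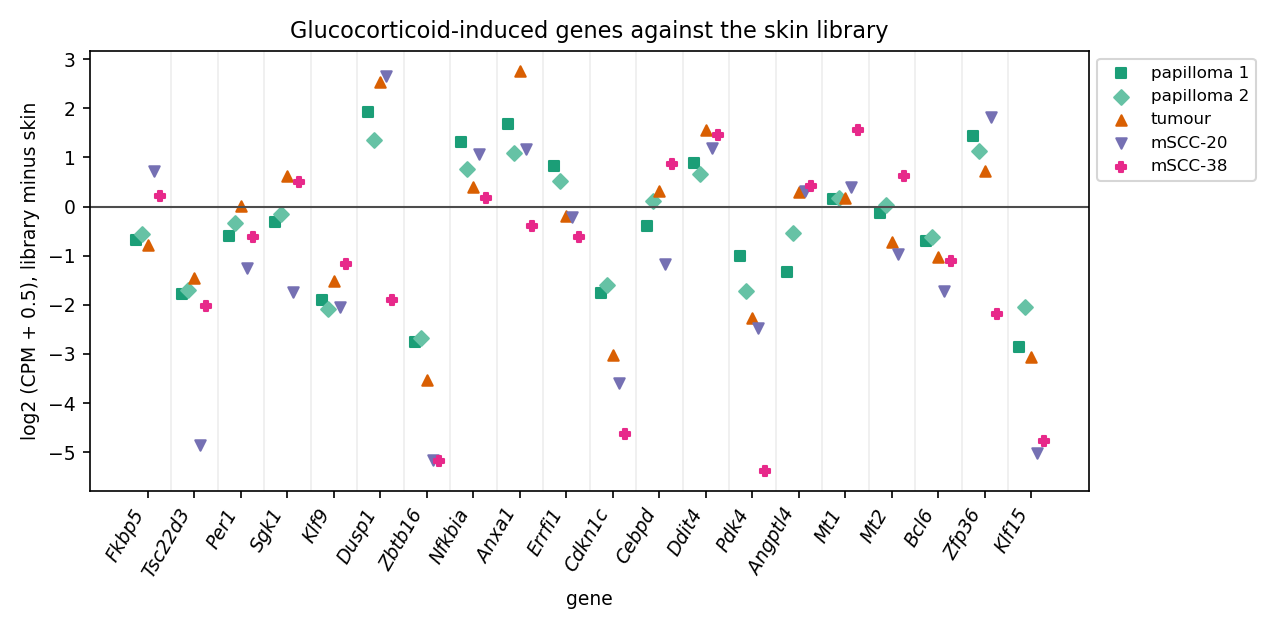
Difference in log2 (CPM + 0.5) from the skin library (y) for Fkbp5, Tsc22d3, Per1 and 17 other glucocorticoid-induced genes (x), with 1 symbol for each of the 5 other libraries and skin as the line at 0. Zbtb16 and Klf15 lie below skin in every library shown, whereas Dusp1 and Zfp36 lie above it in all but mSCC-38.

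Genes listed for the mineralocorticoid response, including the sodium channel and the ligase that removes it, moved in both directions in papilloma, where Nr3c2 itself fell. Of 5 reported, 3 rose, all subunits of the channel, and 1 fell, the ligase Nedd4l (edgeR), with a median log2 fold change of 1.82. In this comparison 12% of all genes tested were called higher and 14.1% lower. The fifth was Sgk1, shared with the list above (165 CPM in skin, 133 and 149 CPM in the papillomas, edgeR adjusted p = 0.417). The 3 subunits of the epithelial sodium channel rose together: Scnn1g from 10.3 CPM in skin to 53.3 and 62.7 CPM (log2 fold change 2.49 ± 0.19, edgeR adjusted p = 0.00572), Scnn1b from 15.5 to 63.6 and 53.5 CPM (1.92 ± 0.19, edgeR adjusted p = 0.00798) and Scnn1a from 44.9 to 186 and 129 CPM. In the tumour they fell again. By the ratio of counts, with both papillomas pooled, the fall was 46.9-fold for Scnn1b (to 1.23 CPM) and 16.4-fold for Scnn1g (to 3.58 CPM). The edgeR log2 fold changes were -5.57 ± 0.24 (edgeR adjusted p = 0.00203) and -4.02 ± 0.21 (edgeR adjusted p = 0.00224). In the cultures the 3 subunits were at 1.84 CPM or less. The differentiation keratins Krt1 and Krt10 had the same order, higher in papilloma than in skin and low in the tumour and cultures, and their part in the result was not tested. Nedd4l, the ubiquitin ligase that removes the channel from the membrane, fell in papilloma and rose in the tumour (29.2 CPM in skin, 12.5 and 14.1 CPM in the papillomas, 26.2 CPM in the tumour).

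Of 14 genes for the supply of steroid, 8 were tested, and 2 fell and 1 rose in papilloma (edgeR), where 14.1% of all genes tested were called lower and 12% higher. Star, which carries cholesterol into mitochondria, fell from 8.39 to 3.28 and 2.47 CPM (log2 fold change -1.54 ± 0.35, edgeR adjusted p = 0.0362), as did Hsd3b6, a dehydrogenase of steroid synthesis, from 13.9 to 6.47 and 5.02 CPM, while Cyp11a1, the first enzyme of that pathway, rose from 2.29 to 6.94 and 7.38 CPM (1.65 ± 0.34, edgeR adjusted p = 0.0309). With DESeq2 size factors, and in DESeq2's Wald test, no gene of the list fell (Star, edgeR adjusted p = 0.0516 and DESeq2 adjusted p = 0.0628), and the Cyp11a1 call was lost with library totals alone (edgeR adjusted p = 0.0739). In the tumour Cyp17a1, a steroid hydroxylase, had 5 counts. By the ratio of counts, with both papillomas pooled, it was 83.0-fold below papilloma (interval 35.3 to 257). Its edgeR log2 fold change was -6.33 ± 0.41 (edgeR adjusted p = 0.00264). Hsd3b6 had 1 count there, 238-fold below papilloma by the same count ratio, with an interval of 42.3 to 9418. Its edgeR log2 fold change was -7.72 ± 0.60 (edgeR adjusted p = 0.00365). H6pd, which makes the NADPH that the Hsd11b1 enzyme uses as reductant, stood at 23.0 CPM in skin, at 14.4 and 16.6 CPM in the papillomas and 28.3 CPM in the tumour, and rose from papilloma to tumour by 0.86 ± 0.18 (log2, edgeR adjusted p = 0.0317), a call lost with library totals alone (edgeR adjusted p = 0.0569). Cyp21a1 and Cyp11b1, the last enzymes on the way to corticosterone, were at 0.362 CPM or less in all libraries.

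The receptor is held ready by chaperones and acts through coregulators. For the counts in papilloma against skin given next, 14.1% of all genes tested were called lower and 12% higher. Of 9 chaperones, 1 fell and 0 rose in papilloma (edgeR), namely Dnaja1, a co-chaperone of Hsp70, from 41.7 to a papilloma mean of 22.8 CPM (log2 fold change -0.87 ± 0.23, edgeR adjusted p = 0.0497). That call was lost with DESeq2 size factors (edgeR adjusted p = 0.0745) and in DESeq2's Wald test (DESeq2 adjusted p = 0.0589). In mSCC-20, 4 of the 9 were at least 4-fold above the tumour, where 6.05% of genes at 10 CPM or more were that much higher and 14.4% lower. They were led by Fkbp4, the co-chaperone that competes with the Fkbp5 protein for the receptor complex (701 against 78.3 CPM, 8.96-fold, 8.63 to 9.29), and Stip1, which links Hsp70 to Hsp90 (1005 against 137 CPM, 7.36-fold, 7.16 to 7.57). In mSCC-38, 1 of 8 at 10 CPM or more was, namely Fkbp4 (362 CPM, 4.63-fold, 4.45 to 4.81), against 2.85% of such genes higher and 10.4% lower. Of 9 coregulators, 1 rose in papilloma, and 1 rose and 1 fell from papilloma to tumour (edgeR). From papilloma to tumour 12% of all genes tested were called higher and 10.6% lower, so these counts are near those shares. Nrip1, a corepressor of nuclear receptors, rose from skin (24.4 CPM) to papilloma (50.0 and 48.3 CPM, log2 fold change 1.02 ± 0.18, edgeR adjusted p = 0.0207) and again to the tumour (246 CPM, 2.31 ± 0.16, edgeR adjusted p = 0.00300). The first of these calls was lost with library totals alone (edgeR adjusted p = 0.0719). In mSCC-20 and mSCC-38 Nrip1 stood at 41.4 and 56.5 CPM. Ncoa1, a coactivator, fell by 1.01 ± 0.19 (log2) from papilloma to tumour (edgeR adjusted p = 0.0257).

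Per1 also belongs to the circadian clock, of which 14 other genes were read. In papilloma 6 of them fell and 1 rose (edgeR), where 14.1% of all genes tested were called lower and 12% higher. Their median log2 fold change was -0.61, against -0.06 over all genes. The 6 were Npas2, Hlf, Tef, Dbp, Per3 and Cry2, among them the output factors Dbp (27.1 CPM in skin, 14.0 and 13.2 CPM in the papillomas), Tef (150, 78.5 and 71.8 CPM) and Hlf (49.4, 21.7 and 15.8 CPM). Clock, the partner of Arntl in the activating complex, rose from 46.1 to 172 and 137 CPM (log2 fold change 1.75 ± 0.24, edgeR adjusted p = 0.0135), and Arntl itself was at 31.0, 28.6 and 29.9 CPM (edgeR adjusted p = 0.709). Npas2, which can stand in for Clock, fell from 4.93 to 0.891 and 0.565 CPM in papilloma (-2.77 ± 0.38, edgeR adjusted p = 0.0140) and rose to 12.6 CPM in the tumour (4.12 ± 0.38, edgeR adjusted p = 0.00516). Bhlhe41, a repressor, rose in the tumour as well, to 13.3 CPM from 2.39 and 2.54 CPM (2.43 ± 0.28, edgeR adjusted p = 0.00813). From papilloma to tumour Per3, Cry2 and Dbp fell further, Cry2 not with library totals alone (edgeR adjusted p = 0.0768). The hour at which each sample was taken is not in the labels, so the time of day and the stage of the lesion cannot be told apart. Skin also had more skeletal muscle RNA (8385 CPM, against 1586 and 959 CPM in the papillomas) and more sebaceous and hair follicle RNA. Its RNA integrity number was the lowest (7.5). The part of these differences in the clock genes was not tested.

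Between the cultures, Per2 and Tef were 13.4-fold (10.8 to 16.7) and 6.56-fold (5.99 to 7.21) higher in mSCC-38 than in mSCC-20, and Per1 was 1.56-fold higher (1.41 to 1.71). Npas2 had no count in mSCC-20, at least 129-fold below the tumour when 3 counts are taken as the limit.

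**Figure D5:**
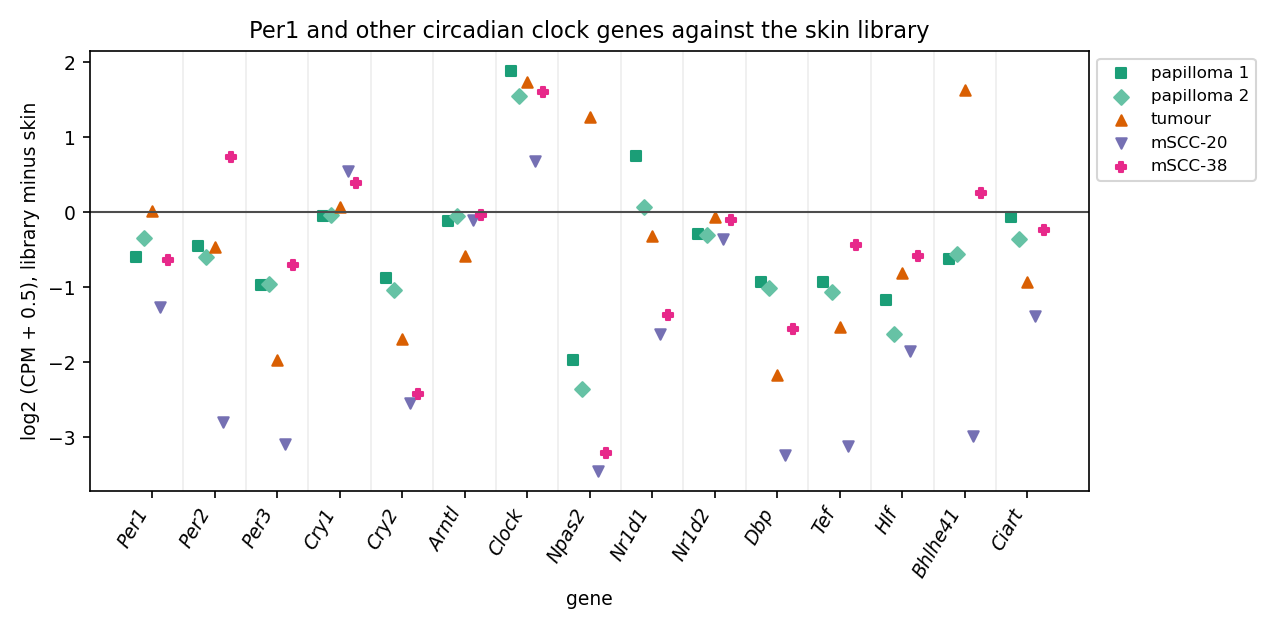
Difference in log2 (CPM + 0.5) from the skin library (y) for Per1 and 14 other clock genes (x), with 1 symbol for each of the 5 other libraries and skin as the line at 0. Clock lies above skin in all 5 libraries, and Npas2 is above skin only in the tumour (12.6 against 4.93 CPM).

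The pattern of each gene over the 6 libraries was set beside those of 10258 genes whose mean was 10 CPM or more, by the Pearson correlation r of log2 (CPM + 0.5). With 6 points, of which 2 share a group, such an r often rests on 1 library and is given as a description. Closest to Hsd11b1 were Col14a1, Zfp704 and Itih5 (r of 0.997 to 0.998). Col14a1, a fibrillar-associated collagen, stood at 63.8 CPM in skin, 8.58, 18.2 and 29.1 CPM in the lesions and at most 0.181 CPM in the cultures. Closest to Hsd11b2 were Nudt16l1, Gprasp1 and Phkb (r of 0.978 to 0.989), all highest in skin and nearly level elsewhere, but none by as wide a margin. Tfcp2, Ptpn21 and Prpf40b were closest to Nr3c1, and Gsn, Ppm1b and Cryab to Nr3c2. Fastkd1, Stk10 and Chchd6 shared with Fkbp5 a peak in mSCC-20. Mll2, Mapkbp1 and Ctdsp2 were closest to Tsc22d3 and lowest in mSCC-20, and Ift88 and Smad7 were close to Per1.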

How the data were processed

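Total RNA of 6 mouse samples was sequenced on SOLiD after library preparation with a small RNA kit, per the labels' protocols. The authors deposited 1 table with a raw read count and an RPKM value per gene model and library. The submitters' processing notes name genome build mm9; how reads were aligned, counted and assigned by strand is not given in the sources used here. No listed gene model overlaps one of the 7 genes. The deposited RPKM values equal the count over gene length and a total of 99.2% to 99.6% of the summed counts, and served only as a check. The 7 genes and the gene lists were chosen with earlier results of these data known.

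Counts were tested with edgeR 4.0.16 (quasi-likelihood, TMM, filterByExpr, Benjamini-Hochberg over 16353 genes, limma 3.58.1, R 4.3.3) on the 4 biopsies. Standard errors are the log2 fold change over the square root of F. The scripts were tested on simulated data. Comparisons of single libraries, and of either culture with the tumour, used log2 ratios of TMM-scaled CPM with 0.5 CPM added; genes at least 4-fold apart with 10 CPM or more in the higher library were counted, without a test. Ratio intervals are exact Clopper-Pearson 95% intervals and cover counting error only; a count of 0 was read as up to 3 counts. Alternatives were DESeq2 1.42.0 (size factors, Wald test), library totals alone, no filter, all 6 libraries, each papilloma left out, and 0.1 or 1 CPM added. Of each list, the 2 called genes with the largest absolute log2 fold change were picked per comparison (of single libraries, the 2 largest ratios past 4-fold). Those of the tested comparisons are all named, and those of single libraries only in part. Further genes were named after their values were seen. For each of the 7 genes, the 3 genes most alike in pattern were named. For 1 listed gene and 1 gene alike in pattern the values are not reported here. The listed gene Ciart appears under the name Gm129. Promoter windows came from RefSeq (GRCm38.p6), with no coordinate converted between builds.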

Additional observations from a re-analysis of the deposited data

How the results depend on the processing

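With library totals alone, 1015 genes were called higher and 3484 lower in papilloma against skin, against 1962 and 2304 with TMM scaling, so the share of calls that were higher was 22.6% against 46.0%. The other alternatives left the counts of called genes over the whole table within 1.5 times their main values. Among 17 other glucocorticoid-induced genes, DESeq2's Wald test called 6 higher and 6 lower in papilloma (against 3 and 6 with edgeR) and 5 higher and 3 lower in the tumour (against 2 and 1). Of all 19190 genes in that test, it called 2348 higher and 1742 lower in papilloma, and 1805 higher and 1903 lower in the tumour. Leaving out either papilloma leaves no residual degree of freedom, so only log2 ratios and counts of genes at least 4-fold apart were recomputed: 339 to 438 higher and 395 to 645 lower in papilloma against skin, and 284 to 297 higher and 474 to 548 lower in tumour against papilloma. The number of the 7 genes called in papilloma against skin ran from 4 to 7 over the alternatives, and it was 0 in each for tumour against papilloma. No log2 fold change of the 7 genes or of a called listed gene changed direction in any alternative test. The log2 ratio of Per1 between tumour and skin, which has no test, did change direction with the scaling, as given above. Of the listed genes called, 18 of 26 (papilloma against skin) and 13 of 18 (tumour against papilloma) kept their call in all alternatives. The cause of the lost calls was not tested. No paired analysis was possible because the groups compared share fewer than 2 replicate numbers. Depth limits Hsd11b1 and Hsd11b2 in the cultures, which rest on 1 to 10 counts.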
